A study of Mus musculus with 54 samples.

Results

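The genes described here are 8 interferon regulatory factors, Irf1, Irf2, Irf3, Irf4, Irf5, Irf7, Irf8 and Irf9. They were taken by symbol from the 39179 gene rows of RNA sequencing counts, and all 8 passed the filter on low counts in both experiments. The cells were macrophages washed from the peritoneum of C57BL/6 mice, aged 8 to 20 weeks, 4 days after an injection of thioglycolate broth, which draws monocytes into the cavity. The study asked which transcription factors hold interleukin-4-treated macrophages in the M2 state and what their knockdown does.

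In the polarization experiment, macrophages of 3 mice were each kept for 24 h untreated (M0), with LPS at 100 ng/ml plus interferon gamma at 50 ng/ml (M1), or with interleukin-4 at 10 ng/ml (M2). In the reprogramming experiment, 12 conditions of 3 libraries were sequenced. They were M0, M1 and M2 macrophages left untransfected, the same 3 states given the transfection reagent alone (mock), and M2 macrophages given siRNA. The siRNA groups received a negative control pool, a pool against E2f1, Myc, Pparg or Stat6, or the pools against these 4 factors combined. Transfected cells were harvested 48 h after transfection and were kept without interleukin-4 in that time, while the study's methods give 24 h after polarization for cells without transfection and do not say whether this covers the untransfected cells of this experiment. The Myc pool came from another maker than the pools against E2f1, Pparg and Stat6, so an effect of Myc loss and of that pool cannot be told apart. The study's methods do not give the maker of the negative pool. The study's methods name 3 biological replicates for M0, M1, M2 and the combined knockdown, in the section on RNA isolation and quantitative PCR. Neither they nor the labels of the reprogramming experiment say that its replicates were separate animals. Its p-values thus measure the spread between these libraries, which may not be a spread between animals.

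Interferon regulatory factors share a DNA-binding domain that recognises repeats of the letters GAAA. Irf3, Irf5 and Irf7 are switched on by phosphorylation after Toll-like receptors or sensors of foreign nucleic acid fire, and Irf3 and Irf7 then drive the genes of the type I interferons. Irf9 is the DNA-binding subunit of ISGF3, the complex that carries the signal of type I interferon to its target genes, Irf7 among them. Irf1 is made in response to interferon gamma and activates genes of M1 macrophages, and Irf2 binds the same DNA sites and can oppose it. Irf8 shapes monocytes and macrophages and acts with Irf1 and PU.1, while its close relative Irf4 is induced by interleukin-4 and serves M2 genes.

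Parts of the promoters of Irf1, Irf2 and Irf8 are shown because, of the 8 genes, these 3 held the letters of the gamma-activated site of interferon gamma response. The sequences are those of RefSeq for GRCm38.p6, 250 bases before to 50 after each start site, and all 8 genes were found there, Irf1, Irf8 and Irf9 with 2 start sites each. Each line runs 5′ to 3′ on the plus strand, on which all 3 genes lie, with the motif letters in capitals. The Irf1 stretch is chr11:53769894-53770013 and ends 1 base before the start site, the Irf2 stretch is chr8:46739495-46739614, and the Irf8 stretch is chr8:120736168-120736287.
Irf1: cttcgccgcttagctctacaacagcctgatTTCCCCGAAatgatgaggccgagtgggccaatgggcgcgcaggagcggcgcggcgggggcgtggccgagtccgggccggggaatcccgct
Irf2: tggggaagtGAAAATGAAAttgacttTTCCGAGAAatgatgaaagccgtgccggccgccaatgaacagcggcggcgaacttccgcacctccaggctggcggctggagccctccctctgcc
Irf8: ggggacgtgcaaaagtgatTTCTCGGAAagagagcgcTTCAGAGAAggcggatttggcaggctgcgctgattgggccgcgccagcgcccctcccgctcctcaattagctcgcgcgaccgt

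In capitals, Irf1 and Irf2 each hold 1 match to TTCNNNGAA, that site, and Irf8 holds 2. The Irf1 match starts 90 bases before the start site, the Irf2 match 224 bases before it, and those of Irf8 171 and 153 bases before it. Irf2 also holds GAAANNGAAA, the core of the interferon-stimulated response element, 241 bases before its start site, and GGGNNTTTCC, a kappa B form, 17 bases before it and outside the printed stretch. Irf9 holds TTCNNNNGAA, the form with a wider gap that Stat6 prefers, from base 2 to base 11 after a start site. Over both strands of all 32851 promoter windows of the same length, TTCNNNGAA was found in 8.3%, GAAANNGAAA in 3.44%, TTCNNNNGAA in 6.95% and GGGNNTTTCC in 1.63%. These motifs do not overlap one another within the windows shown. None of the 4 motifs was found in the windows of Irf3, Irf4, Irf5 and Irf7, which says only that these letters are not in those windows.

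Counted reads ranged from 19714994 to 29880494 per library in the polarization experiment and from 13421854 to 19704195 in the reprogramming experiment. Repeat libraries of the same culture differed by little more than sampling noise (chi-square per gene from 1.07 to 1.10, against 3.63 to 52.4 between mice), and were summed to 1 sample. The largest values, from 47.3 to 52.4, were those of M2 mouse 1 against M2 mice 2 and 3. M2 mice 2 and 3 differed from each other by 3.65 to 3.72. All 6 macrophage markers were present in every condition, with a summed level between 6090 and 18160 CPM, reads of a gene scaled to a common library size. The sum was lower in M1 than in M0, at 9677 to 10660 against 16020 to 17290 CPM at 24 h. Summed T cell and B cell markers reached at most 5.82 and 34.9 CPM in any library. The summed dendritic cell markers stood at 2.43 to 5.20 CPM in M0 and 29.0 to 39.8 CPM in M1 at 24 h, mostly through Ccr7, while Siglech was at 0, and Irf8 and Irf4, which dendritic and B cells also express, moved between the same groups. The part of these cells in the values was not tested, and in bulk samples fewer cells of a type and less RNA per cell cannot be told apart. In the single knockdowns E2f1, Myc, Pparg and Stat6 were at 25.2% ± 4.05, 38.0% ± 8.01, 21.9% ± 2.58 and 27.3% ± 5.79 of the negative pool (SD, n = 3), and in the combined knockdown at 60.4%, 39.6%, 28.3% and 54.0%.

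At 24 h, LPS with interferon gamma brought Irf7 and Irf1 from low levels to the highest of the family, and raised Irf8, Irf9, Irf5 and Irf2 by less. Interleukin-4 raised Irf4. Tests were edgeR's quasi-likelihood tests with Benjamini-Hochberg adjustment over all genes, and a gene was called at an adjusted p under 0.05. Of the 8 genes 6 rose and 2 fell in M1 against M0, and the groups of all 8 did not overlap, in a comparison in which 72.9% of 16110 tested genes were called (35.4% higher and 37.5% lower) and 79.2% did not overlap. A count of 8 is near that background and is not in itself a result about these genes. In M2 against M0, 3 rose and 2 fell where 27.9% of all genes were called (13.5% higher and 14.4% lower), and 6 did not overlap where 45.4% of all genes did not. In M1 against M2, 6 rose and 1 fell where 72.6% of all genes were called (34.6% higher and 38.1% lower).

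Irf1, the interferon gamma-induced activator, stood at 39.2, 34.4 and 33.3 CPM in M0 of the 3 mice, at 2044, 2001 and 2107 CPM in M1, and at 50.3, 49.99 and 45.2 CPM in M2. All M1 samples lay far above all others, and the M2 samples lay just above M0. The rise in M1 was 57.6-fold (log2 5.85, SE 0.09, edgeR adjusted p = 1.95e-13), and that in M2 was 1.36-fold (log2 0.44, SE 0.07, edgeR adjusted p = 0.00111). Irf2, which competes for the sites of Irf1, moved the same way on a much smaller scale. It stood at 52.3, 51.3 and 50.4 CPM in M0, 94.8, 85.2 and 99.95 CPM in M1, and 64.4, 58.7 and 56.9 CPM in M2. The 3 groups of Irf2 did not overlap, with a 1.82-fold rise in M1 (edgeR adjusted p = 2.72e-07) and a 1.17-fold rise in M2 (edgeR adjusted p = 0.0326). The Irf2 call in M2 was lost without any of M0 mice 1, 2 and 3 or M2 mice 1 and 2 (edgeR adjusted p from 0.0594 to 0.102). In M1 against M2, Irf1 was 42.3-fold and Irf2 1.56-fold higher.

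Irf8 and Irf4, the relatives that pair with PU.1, moved in opposite directions between the 2 treatments. Irf8 stood at 179, 171 and 175 CPM in M0, 1124, 1140 and 1014 CPM in M1, and 92.6, 111 and 114 CPM in M2. It was thus highest in every M1 sample and lowest in every M2 sample, a 6.24-fold rise (log2 2.64, SE 0.09, edgeR adjusted p = 6.12e-11) and a fall to 60.5% of M0 (edgeR adjusted p = 7.26e-05). Irf4 stood at 5.26, 5.41 and 4.47 CPM in M0, 2.46, 2.66 and 2.33 CPM in M1, and 50.3, 45.6 and 42.6 CPM in M2. Irf4 rose 9.15-fold in M2 (log2 3.19, SE 0.09, edgeR adjusted p = 2.14e-09) and fell to 49.1% in M1 (edgeR adjusted p = 3.89e-06), on 91 to 112 reads in M1 and 243 to 290 reads in M0. Between M1 and M2, Irf8 was 10.3-fold higher and Irf4 stood at 5.37% in M1.

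Irf7, the amplifier of type I interferon, showed the widest range of the 8 genes. It stood at 16.6, 19.1 and 21.1 CPM in M0, 2017, 2052 and 2496 CPM in M1, and 8.22, 10.5 and 11.1 CPM in M2. The order of the 3 groups was the same in every mouse, with a 115.5-fold rise in M1 (log2 6.85, SE 0.15, edgeR adjusted p = 2.55e-12) and a fall to 52.6% in M2 (edgeR adjusted p = 0.000286). Irf9, the DNA-binding subunit of ISGF3, stood at 39.0, 39.7 and 38.9 CPM in M0, 107, 111 and 111 CPM in M1, and 36.9, 35.5 and 34.9 CPM in M2. Irf9 rose 2.79-fold in M1 (edgeR adjusted p = 8.68e-11), and its difference of -0.13 on the log2 scale in M2 did not pass (edgeR adjusted p = 0.0694, 95% interval from -0.23 to -0.04), although the groups did not overlap. DESeq2 called it at an adjusted p of 0.04, and edgeR did without M2 mouse 1 (adjusted p = 0.0246).

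Irf5, the factor of the Toll-like receptor and MyD88 route to inflammatory cytokines, stood at 248, 238 and 222 CPM in M0, 538, 528 and 575 CPM in M1, and 216, 238 and 242 CPM in M2. Only M1 stood apart, 2.32-fold above M0 (edgeR adjusted p = 1.04e-08), and in M2 the log2 difference was -0.02 (95% interval from -0.16 to 0.11, edgeR adjusted p = 0.829). Irf3, which is held in the cytoplasm until it is phosphorylated, moved least. It stood at 39.1, 40.9 and 41.4 CPM in M0, 34.7, 33.9 and 37.3 CPM in M1, and 32.6, 36.6 and 39.3 CPM in M2. In M1 it fell to 87.3% of M0 (edgeR adjusted p = 0.0316), a call lost with DESeq2 (adjusted p = 0.0703), with its size factors in edgeR (adjusted p = 0.0671), without the filter (adjusted p = 0.0581), and without any of M0 mice 1, 2 and 3 or M1 mice 1 and 2 (edgeR adjusted p from 0.0742 to 0.117). In M2 its log2 difference was -0.16 (95% interval from -0.31 to -0.02, edgeR adjusted p = 0.127), and it was called without M2 mouse 3 (adjusted p = 0.0477).

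**Figure D1:**
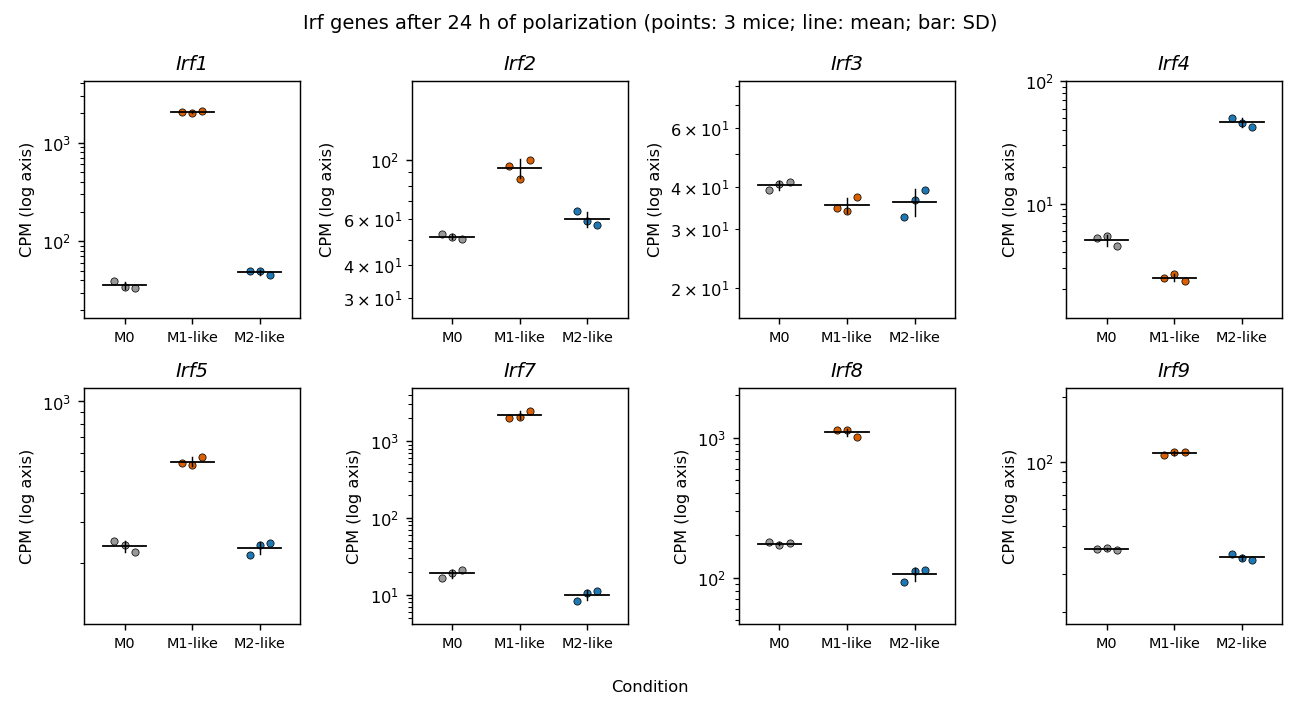
CPM of the 8 genes at 24 h on log axes, 1 panel per gene, with 1 point per mouse, a bar at the mean of M0, M1 and M2 and a line of 1 SD to either side. Irf7 and Irf1 lie between 2001 and 2496 CPM in M1, and Irf4 is the gene that is highest in M2, at 42.6 to 50.3 CPM.

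Scaled to exon length, the order of the genes changed with treatment. In M0 at 24 h, Irf5 led with 81.2 CPM per kb, followed by Irf8 at 24.8, Irf3 at 11.8, Irf1 at 8.96, Irf9 at 7.28, Irf2 at 6.94, Irf7 at 5.02 and Irf4 at 1.03 CPM per kb. In M1, Irf7 led with 580 CPM per kb and Irf1 followed at 516, above Irf5 at 188 and Irf8 at 155, with the other 4 genes at 20.3 CPM per kb or less. In M2, Irf5 led again with 79.8 CPM per kb, and Irf4 stood at 9.42, close to Irf3 at 10.5 and Irf2 at 8.11 CPM per kb. The share of reads that these genes hold in common with overlapping genes is open, since counting was not stated to use strand. Irf1 overlaps Gm17334 over 135 exonic bases, Irf3 overlaps Bcl2l12 over 88, Irf5 overlaps Tnpo3 over 411 and Irf7 overlaps Phrf1 over 45, all on the opposite strand, and Irf9 shares 123 bases with Rnf31 on its own strand.

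Genes up- and downstream in the pathway were taken as lists that were chosen with earlier results of these data known. Of 15 targets of ISGF3, Irf3 and Irf7, all rose in M1 against M0 at 24 h, with a median log2 change of 7.58 against -0.04 over all genes, and none was called in M2 by edgeR. Among them Ifit2, an antiviral RNA-binding protein, rose from 2.89 to 2255 CPM, and Mx1, an antiviral GTPase, from 2.74 to 868 CPM. All 11 measured targets of interferon gamma and Irf1 rose as well, with Nos2, the inducible nitric oxide synthase, going from 0.937 to 12350 CPM and Cxcl9, a chemokine, from 0.168 to 2487 CPM. Stat2, which sits beside Irf9 in ISGF3, rose from 42.6 to 713 CPM. All 8 genes of interleukin-4 activation tied to Irf4 rose in M2 against M0, with a median log2 change of 4.38, among them Chil3, a chitinase-like protein, from 13.8 to 5927 CPM and Mrc1, the mannose receptor, from 104 to 317 CPM. The list was not particular to M2. In M1 against M0, where Irf4 fell, 4 of these 8 genes rose and 1 fell, with a median log2 change of 1.89. In the reprogramming experiment 7 of them were tested. In untransfected M2 against M0, 5 rose and none fell (median log2 change 1.25), while Irf4 was not called (log2 0.07, edgeR adjusted p = 0.86). In mock M2 against mock M0, 4 rose and none fell (median 2.07), and Irf4 was not called (log2 0.44, edgeR adjusted p = 0.281).

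Of 16 sensors, adaptors and kinases upstream of Irf3, Irf5 and Irf7, 10 rose and 5 fell in M1 against M0. In that comparison 72.9% of all genes were called (35.4% higher and 37.5% lower). In M1 against M2, the largest differences in that list were those of Tlr9, the receptor for CpG DNA (log2 4.99, SE 0.12), Tmem173, which encodes STING (log2 2.37, SE 0.08), and Myd88, the adaptor of most Toll-like receptors (log2 2.36, SE 0.06). Of the 7 interferon receptors and kinases 6 rose and 1 fell in M1 against M0. In M1 against M2, Jak2, a kinase of the interferon gamma receptor, was higher (log2 2.50) and Ifngr1, its ligand-binding chain, was lower (log2 -1.52). Of the 3 Irf2 binding proteins, which are corepressors, none rose and 2 fell in M1 against M0, a count near the share of all genes called there. Batf2, a partner of Irf1 in activated macrophages, stood at 221 CPM in M1 and 2.93 CPM in M2 (log2 6.24, edgeR adjusted p = 2.64e-13).

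In the untransfected libraries of the reprogramming experiment Irf1, Irf7 and Irf8 were again higher and Irf4 lower in M1 than in M0. In M1 against M0, 5 of the 8 genes rose and 3 fell where 57.7% of 14172 tested genes were called (29.0% higher and 28.7% lower). In M2 against M0 none rose and 3 fell where 19.9% were called (10.7% higher and 9.19% lower), and in M1 against M2 5 rose and 2 fell where 61.5% were called (31.3% higher and 30.2% lower). The groups of all 8 genes did not overlap in M1 against M0, where 60.5% of all genes did not. Irf1 stood at 39.2, 49.6 and 37.7 CPM in M0, 809, 812 and 824 CPM in M1, and 33.0, 32.2 and 35.8 CPM in M2. The M1 libraries were again far above the others, by 19.3-fold over M0 (edgeR adjusted p = 1.99e-22). In M2 the log2 difference of Irf1 was -0.33 (edgeR adjusted p = 0.0699), with all M2 libraries below all M0 libraries, and it was called without the filter (adjusted p = 0.0105) and with only the groups compared (adjusted p = 0.0493).

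Irf8 stood at a mean of 275 CPM in M0, at 817, 731 and 910 CPM in M1 and at a mean of 306 CPM in M2, a 2.98-fold rise in M1 (edgeR adjusted p = 2.58e-17) and a log2 difference of 0.15 in M2 (95% interval from -0.00 to 0.31, edgeR adjusted p = 0.174). Irf4 stood at 5.12, 8.50 and 5.73 CPM in M0, 2.02, 2.21 and 1.64 CPM in M1, and 7.15, 7.54 and 5.75 CPM in M2. M1 was the low group, at 30.2% of M0 (edgeR adjusted p = 5.76e-07) and on 26 to 33 reads per library, while M0 and M2 overlapped (log2 0.07, 95% interval from -0.35 to 0.49). Summed markers of B cells, which express Irf4 and Irf8, were also lowest in M1, at 0.733 to 1.47 CPM against 9.34 to 32.5 CPM in M0 and 6.94 to 14.8 CPM in M2, and their part in the Irf4 values was not tested. The Irf4 level of M2 was thus 46.2 ± 3.89 CPM at 24 h in the polarization experiment and 6.82 CPM here (SD, n = 3 in each). The experiments differ in their reads and possibly in their animals and harvest time, and no test was made between them.

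Irf7 stood at 62.7, 23.6 and 20.4 CPM in M0, 344, 387 and 357 CPM in M1, and 10.3, 8.32 and 7.67 CPM in M2. The groups did not overlap, with a log2 rise of 3.36 in M1 (SE 0.34, edgeR adjusted p = 6.03e-10) and a fall by 2.02 in M2 (SE 0.38, edgeR adjusted p = 0.000241). M0 replicate 1 was the high library, and it was also the highest of the 3 in Irf9 and Stat2. Without it the log2 changes of Irf7 were 4.04 in M1 (edgeR adjusted p = 5.59e-11) and -1.33 in M2 (edgeR adjusted p = 0.0116). Irf9 stood at 55.9, 53.7 and 49.5 CPM in M0, 58.5, 71.2 and 69.8 CPM in M1, and 35.3, 37.7 and 34.7 CPM in M2. Its M1 libraries lay above and its M2 libraries below M0, with a 1.26-fold rise (edgeR adjusted p = 0.00167) and a fall to 67.7% (edgeR adjusted p = 2.08e-05).

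Irf2, Irf3 and Irf5 differed by less than 1.5-fold between the untransfected groups. Irf2 rose 1.203-fold in M1 (edgeR adjusted p = 0.00479), a call lost without M1 replicate 2 (adjusted p = 0.0901) and with only the groups compared (adjusted p = 0.0534). Irf3 fell to 77.3% in M1 (edgeR adjusted p = 5.51e-05). Irf5, which was 2.32-fold higher in M1 than in M0 in the polarization experiment, was not higher in M1 here. It was at a mean of 249 CPM in M0, 218 CPM in M1 and 206 CPM in M2, and the falls to 87.7% in M1 (edgeR adjusted p = 0.0422) and 82.9% in M2 (edgeR adjusted p = 0.0149) each rested on single libraries. The M1 call of Irf5 was lost without M0 replicate 3, M1 replicate 1 or M1 replicate 2 (edgeR adjusted p from 0.0706 to 0.187), without the filter (0.0744) and with only the groups compared (0.0622). Its M2 call was lost without M0 replicate 3 or M2 replicates 1 or 2 (edgeR adjusted p from 0.0529 to 0.121). In M1 against M2 the Irf2 call was lost without M1 replicate 2 (edgeR adjusted p = 0.106) and with only the groups compared (0.094).

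**Figure D2:**
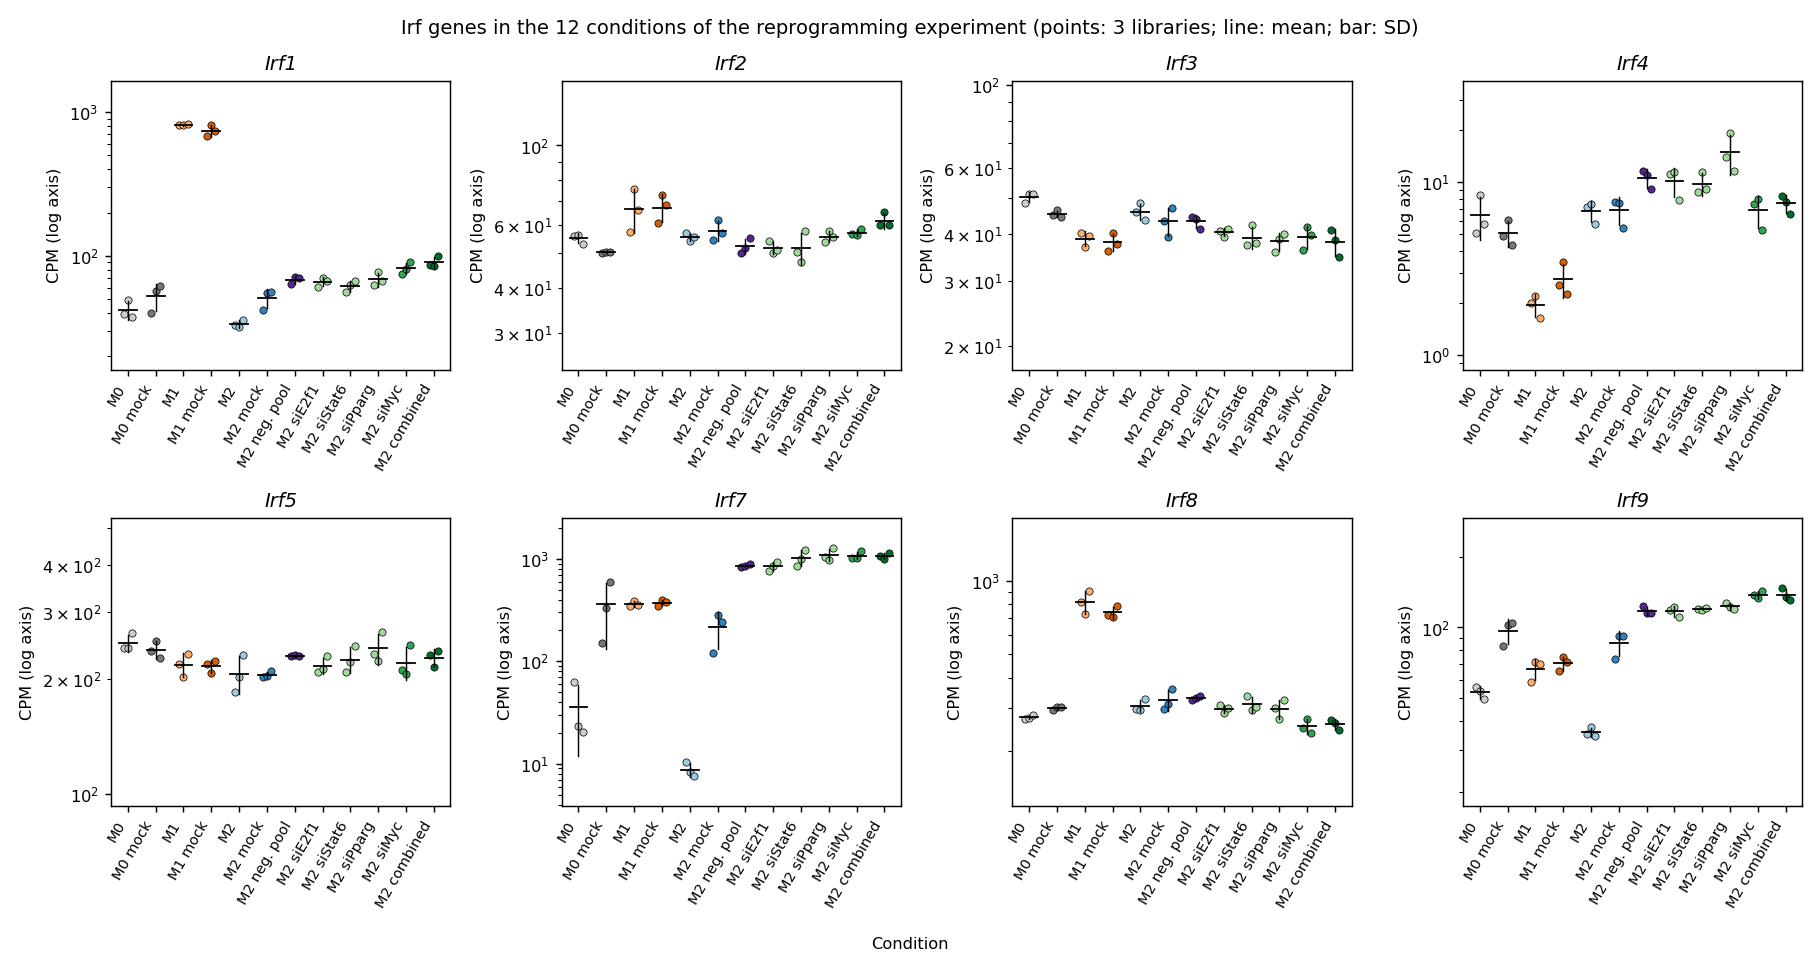
CPM of the 8 genes in the 12 conditions of the reprogramming experiment on log axes, 1 panel per gene, with 1 point per library, a bar at the mean and a line of 1 SD to either side. Irf1 and Irf8 are highest in the M1 conditions, Irf7 and Irf9 in the siRNA conditions, and Irf2, Irf3 and Irf5 stay within a narrow band, from 205 to 249 CPM for the means of Irf5.

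Irf7 and Irf9 were higher in mock-treated than in untransfected M0 and M2 macrophages, and no difference was detected in M1 macrophages. The mock groups may also have been in culture longer, and mock M2 longer without interleukin-4, so the reagent and the time in culture cannot be told apart. In M0, 2 of the 8 genes rose and none fell where 20.4% of all genes were called (11.7% higher and 8.66% lower), and in M2, 3 rose and none fell where 1.77% were called (1.67% higher and 0.0988% lower). In M1 edgeR called none of the 8 and 0.0% of all genes, with no member at an unadjusted p under 0.05 and none called by DESeq2. Irf7 stood at 149.5, 328 and 598 CPM in mock M0, against 20.4 to 62.7 CPM in untransfected M0. It stood at 121, 285 and 241 CPM in mock M2, against 7.67 to 10.3 CPM in untransfected M2. All mock libraries lay above all untransfected ones, and the spread among them was wide, at 359 ± 226 CPM in M0 and 216 ± 84.8 CPM in M2 (SD, n = 3).

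The log2 difference of Irf7 between mock-treated and untransfected cells was 3.34 in M0 (SE 0.34, edgeR adjusted p = 8.76e-09) and 4.62 in M2 (SE 0.39, edgeR adjusted p = 2.88e-10), and without M0 untransfected replicate 1 the former was 4.03 (adjusted p = 1.21e-09). In M1 Irf7 stood at 348, 399 and 378 CPM with the reagent and 344, 387 and 357 CPM without it, and the log2 difference was 0.05 (95% interval from -0.55 to 0.65). Irf9 stood at 83.4, 103 and 104 CPM in mock M0 and 73.8, 92.2 and 91.8 CPM in mock M2. All of these lay above the untransfected libraries, with differences of 1.83-fold (edgeR adjusted p = 3.09e-09) and 2.39-fold (edgeR adjusted p = 5.21e-12). In M1 the log2 difference of Irf9 was 0.08 (95% interval from -0.08 to 0.25).

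Irf1 was 1.52-fold higher in mock M2, at 42.3, 55.0 and 56.1 CPM (edgeR adjusted p = 0.00399), a call lost without M2 mock replicate 3 (adjusted p = 0.0501). In mock M0 it stood at 40.0, 56.6 and 61.8 CPM, which overlapped the untransfected libraries (log2 0.32, edgeR adjusted p = 0.0644). That difference was called without M0 mock replicate 1 (adjusted p = 0.00413), without M0 untransfected replicate 2 (0.018), without the filter (0.00789) and by DESeq2 (0.0432). Replicate 1 of mock M0 was the lowest of its 3 libraries in Irf1, Irf7, Irf9 and Stat2, and so was replicate 1 of mock M2. Irf2, Irf3, Irf4, Irf5 and Irf8 were called in none of the 3 states between mock and untransfected cells.

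The genes around Irf7 and Irf9 moved with them. All 15 targets of ISGF3, Irf3 and Irf7 were higher in mock than in untransfected M0 (median log2 change 3.23, against -0.00 over all genes) and in M2 (median 3.30, against -0.00), and none was called in M1 (median 0.20). Ifit2 went from 5.21 to 226 CPM in M0 and from 2.97 to 127 CPM in M2, and Usp18, which restrains the type I interferon receptor, went from 7.51 to 48.1 CPM and from 3.29 to 39.8 CPM. Stat2 stood at 79.9, 108 and 138 CPM in mock M0 against a mean of 43.95 CPM (log2 1.31, edgeR adjusted p = 3.12e-07), and at 65.1, 112 and 105 CPM in mock M2 against 28.4 CPM (log2 1.72, edgeR adjusted p = 6.18e-09). Of the 16 sensors, adaptors and kinases, 7 rose in mock M0 and none was called in mock M2, where 20.4% and 1.77% of all genes were called. Ifnb1, the gene of interferon beta, had no read in untransfected M0, untransfected M2 or mock M2, so that its level lay under the 3 reads per library that a count of 0 allows. In mock M0 it had 0 to 1 reads per library.

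With mock libraries on both sides, the M1 state no longer stood above M0 in Irf7. Irf7 differed between mock M1 and mock M0 by 0.06 on the log2 scale (95% interval from -0.54 to 0.66, edgeR adjusted p = 0.871), and Irf9 was lower in mock M1, at 72.6% of mock M0 (edgeR adjusted p = 1.96e-05). Tested directly, the M1 to M0 difference was smaller in mock than in untransfected macrophages by -3.30 for Irf7 (SE 0.45, edgeR adjusted p = 6.35e-06) and by -0.79 for Irf9 (SE 0.12, edgeR adjusted p = 3e-05), on the log2 scale. Of the 8 genes these 2 were called lower in this test and none higher, where 9.07% of all genes were called (3.22% higher and 5.85% lower). Without M0 untransfected replicate 1 the Irf7 value was -3.98 (edgeR adjusted p = 1.55e-07). The same test for Irf1 gave -0.46 (95% interval from -0.79 to -0.12, edgeR adjusted p = 0.0913), and Irf1 was called without M0 mock replicate 1 (adjusted p = 0.00975) or M0 untransfected replicate 2 (adjusted p = 0.0306). For Irf8 it gave -0.27 (edgeR adjusted p = 0.132), called without M1 untransfected replicate 2 (adjusted p = 0.0458). For Irf4 it gave 0.85 (95% interval from 0.16 to 1.54, edgeR adjusted p = 0.131), called without the filter (0.0474). Of the 15 targets of ISGF3, Irf3 and Irf7, all 15 were lower in this test, with a median of -2.97. For the M2 to M0 difference the same test called none of the 8 genes by edgeR, where 5.66% of all genes were called (2.41% higher and 3.25% lower), with 2 at an unadjusted p under 0.05 and 1 called by DESeq2. Irf9 gave 0.39 (edgeR adjusted p = 0.0559) and was called without M0 mock replicates 2 or 3 or M2 mock replicate 1 (from 0.0119 to 0.0473), and Irf7 gave 1.28 (edgeR adjusted p = 0.132) and was called without M0 mock replicate 3, at 1.86 (0.0085).

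**Figure D3:**
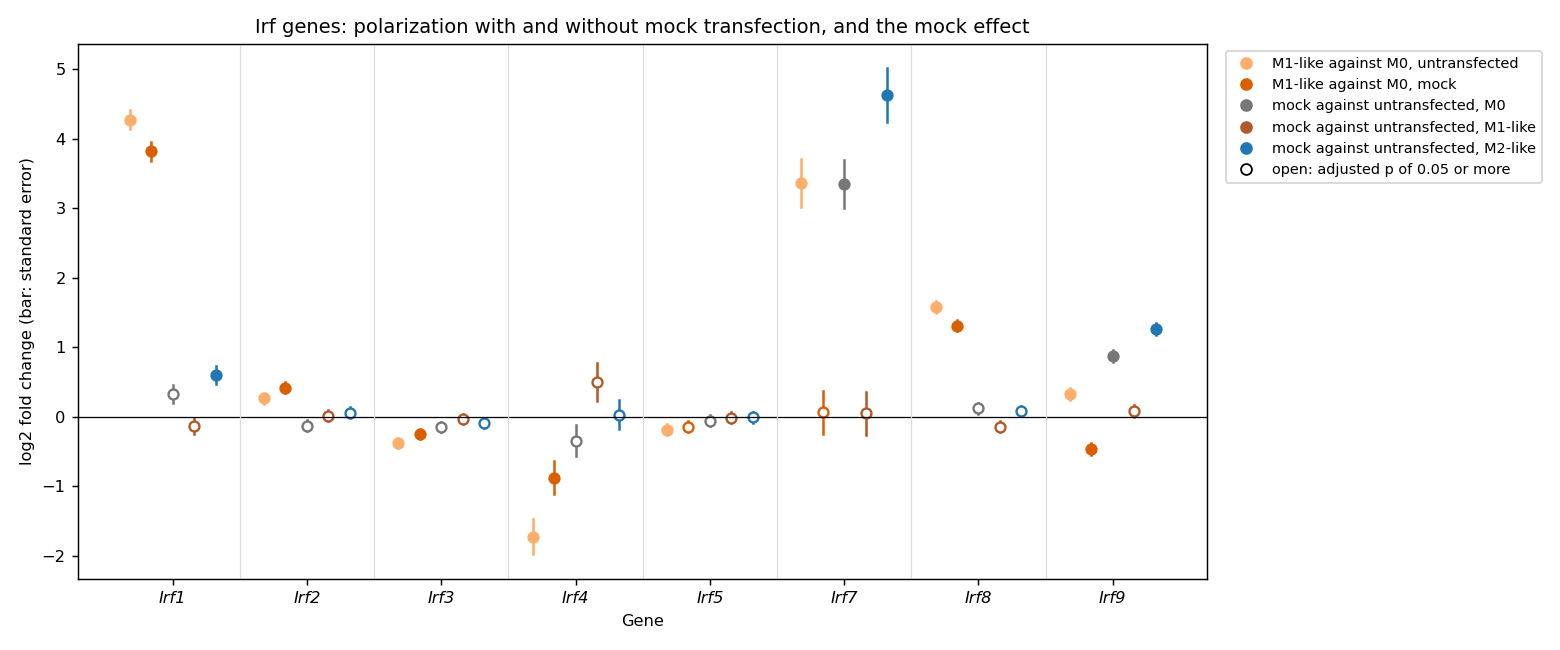
Log2 fold change of each gene with its standard error, 3 libraries per group. The series are M1 against M0 in untransfected and in mock cells, and mock against untransfected in M0, M1 and M2 macrophages. For mock against untransfected, Irf7 lies at 3.34 in M0 and 4.62 in M2 and at 0.05 in M1, and Irf9 shows the same order at smaller values.

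Irf1 and Irf8 were highest and Irf4 was lowest in mock M1 of the 3 mock states. In mock M1 against mock M0, 3 of the 8 genes rose and 3 fell where 60.4% of all genes were called (30.3% higher and 30.0% lower), and in mock M1 against mock M2, 4 were higher and 3 lower where 60.7% were called (30.9% higher and 29.8% lower). Irf1 stood at 679, 815 and 737 CPM in mock M1, 14.1-fold above mock M0 (edgeR adjusted p = 2.37e-21) and 14.6-fold above mock M2. Irf8 stood at 721, 713 and 788 CPM, 2.48-fold above mock M0 (edgeR adjusted p = 2.76e-15). Irf4 stood at 2.56, 3.44 and 2.26 CPM in mock M1 and 7.75, 7.64 and 5.44 CPM in mock M2, so that mock M1 was at 39.9% of mock M2 (edgeR adjusted p = 1.01e-05). Summed B cell markers were also lowest in mock M1, at 0.979 to 2.36 CPM against 6.66 to 34.9 CPM in mock M0 and 6.90 to 12.5 CPM in mock M2, and their part in the Irf4 and Irf8 values was not tested. Between mock M2 and mock M0 edgeR called none of the 8 where 3.83% of all genes were called (2.19% higher and 1.64% lower), although 5 had an unadjusted p under 0.05, and DESeq2 called none. The Irf7 difference of -0.73 in that comparison was called without M0 mock replicate 1, at -1.10 (SE 0.279, edgeR adjusted p = 0.0211). It was also called without the filter (SE 0.115, edgeR adjusted p = 9.8e-08), in a fit that gave it a smaller standard error. The libraries overlapped, at 121 to 285 CPM in mock M2 and 149.5 to 598 CPM in mock M0.

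Against mock M2, mock M1 also had calls that rested on single libraries. Irf7 was 1.74-fold higher (edgeR adjusted p = 0.0261), which was lost without M2 mock replicate 1 (log2 0.51, adjusted p = 0.181), without M1 mock replicate 2 (0.0639) and with DESeq2 (0.0524). Irf2 was 1.16-fold higher and its groups overlapped. Its call was lost without M1 mock replicate 2, M2 mock replicate 1 or M2 mock replicate 3 (edgeR adjusted p from 0.0526 to 0.134). Irf3 stood at 88.0%, also with overlap, and its call was lost without M1 mock replicates 1 or 3 or M2 mock replicates 1 or 3 (edgeR adjusted p from 0.0615 to 0.185). Both were lost without the filter (0.0675 for Irf2 and 0.1 for Irf3) and with only the groups compared (0.0883 and 0.0878).

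Irf7, Irf9, Irf1 and Irf4 were higher with the negative control pool, which the study's methods do not describe, than with the reagent alone. Against mock M2, 4 of the 8 genes rose and none fell where 11.7% of all genes were called (6.67% higher and 5.03% lower). Irf7 stood at 834, 850 and 882 CPM with the pool, all above the 121 to 285 CPM of mock M2, a log2 rise of 1.99 (SE 0.32, edgeR adjusted p = 4.3e-05). Irf9 stood at 123, 115 and 115 CPM, 1.37-fold above mock M2 (edgeR adjusted p = 0.00028). Irf1 stood at 63.6, 71.2 and 70.1 CPM, 1.34-fold above it (edgeR adjusted p = 0.0225). The Irf1 call was lost without M2 mock replicate 1, pool replicate 2 or pool replicate 3 (edgeR adjusted p from 0.0724 to 0.169).

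Irf4 stood at 11.6, 11.0 and 9.09 CPM with the pool and 7.75, 7.64 and 5.44 CPM in mock M2, without overlap and 1.52-fold higher (edgeR adjusted p = 0.0492). This call was lost without any of M2 mock replicates 1, 2 and 3 or pool replicates 1 and 2 (edgeR adjusted p from 0.0591 to 0.254), and with DESeq2's size factors (0.055). All 15 targets of ISGF3, Irf3 and Irf7 rose here as well (median log2 change 1.73, against 0.01 over all genes), Ifi44 from 6.85 to 60.1 CPM among them. Stat2 rose from 93.7 to 185 CPM. Ifnb1 had 0 to 4 reads per library with the pool. The knockdown groups were all compared with this pool, so their comparisons share its 3 libraries and are not independent of one another.

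The combined knockdown of E2f1, Myc, Pparg and Stat6 was followed by modest rises of Irf1, Irf2 and Irf9 and a fall of Irf8. Against the negative pool 3 of the 8 genes rose and 1 fell where 26.5% of all genes were called (12.5% higher and 13.9% lower), and 7 of the 8 did not overlap where 44.2% of all genes did not. Irf1 stood at 87.0, 85.2 and 99.6 CPM, above every pool library, and was 1.33-fold higher (log2 0.41, SE 0.12, edgeR adjusted p = 0.0119). Irf2 stood at 59.8, 65.3 and 59.97 CPM against 50.1, 51.7 and 55.1 CPM with the pool, 1.18-fold higher (edgeR adjusted p = 0.0247). Irf9 stood at 147, 135 and 131 CPM, 1.17-fold higher (edgeR adjusted p = 0.0407). Irf8 stood at 268, 261 and 243 CPM against 325, 328 and 336 CPM, at 77.97% of the pool (log2 -0.36, SE 0.08, edgeR adjusted p = 0.00087). The fall of Irf8 was the 1 of these 4 calls that was kept without each single library.

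The call of Irf1 was lost without combined replicate 3 or pool replicate 1 (edgeR adjusted p = 0.0727 and 0.062). The call of Irf2 was lost without combined replicate 2 or pool replicates 1 or 2 (edgeR adjusted p from 0.0689 to 0.119) and without the filter (0.0629). The call of Irf9 was lost without combined replicates 1 or 2 or pool replicates 2 or 3 (edgeR adjusted p from 0.0655 to 0.18) and without the filter (0.0655). Irf7 stood at 1061, 992 and 1152 CPM, above all pool libraries, yet its log2 difference of 0.32 had a 95% interval from -0.28 to 0.92 (edgeR adjusted p = 0.47) in the fit that shares the spread of all 12 conditions. With only the 2 groups compared it was called at 0.33 (edgeR adjusted p = 0.00242), and without the filter as well (adjusted p = 0.0369). Irf4 stood at 8.39, 7.72 and 6.57 CPM, below all pool libraries (log2 -0.48, 95% interval from -0.87 to -0.09, edgeR adjusted p = 0.0717), and was called with only the groups compared (0.0205) and without the filter (0.0215). Irf3 was at -0.18 (edgeR adjusted p = 0.0609) and was called without combined replicate 1 (0.0341), and Irf5 at -0.02 (95% interval from -0.17 to 0.14).

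Genes of the pathway moved in part with these. Of the 15 targets of ISGF3, Irf3 and Irf7, 8 rose and none fell in the combined knockdown against the pool, with a median log2 change of 0.58 against 0.01 over all genes. Usp18 rose from 131 to 241 CPM (edgeR adjusted p = 0.000151), Isg20, an exonuclease, from 22.1 to 39.9 CPM (edgeR adjusted p = 0.000725) and Ifit3, a partner of Ifit2, from 318 to 541 CPM (edgeR adjusted p = 0.0495). Of the 11 targets of interferon gamma and Irf1, 5 rose and 1 fell, with Nos2 rising from 0.378 to 2.22 CPM, where M1 mock macrophages held 502 CPM. Stat2 rose from 185 to 283 CPM and Batf2 from 8.42 to 14.7 CPM, while Batf3, a partner of Irf8 and Irf4, fell from 7.92 to 4.71 CPM. Ifnb1 rose, from 0 to 4 reads per library with the pool to 9 to 24 reads (log2 3.15, SE 0.73, edgeR adjusted p = 0.00214).

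Upstream, 2 of 16 sensors, adaptors and kinases rose and 3 fell, a share near the 26.5% of all genes called, with Traf3, an adaptor on the way to Irf3 and Irf7, at log2 0.76 (SE 0.07), Tbk1, the kinase of Irf3, at 0.38 (SE 0.07) and Tlr9 at -0.73 (SE 0.18). Of the 7 genes of interleukin-4 activation tested 2 fell and none rose, a count near that share too. They were Chil3, from 880 to 515 CPM (edgeR adjusted p = 0.000443), and Pdcd1lg2, a ligand of PD-1, from 2.33 to 1.03 CPM (edgeR adjusted p = 0.0367). Of the 7 interferon receptors and kinases 2 fell, also near that share, Ifngr2 by 0.22 and Jak1 by 0.18 on the log2 scale. Of the 3 Irf2 binding proteins 2 rose, Irf2bp1 by 0.48 and Irf2bpl by 0.47.

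Against mock M2, with which the knockdown shares the reagent but not the RNA, 3 of the 8 genes were higher and 2 lower in the combined knockdown where 37.1% of all genes were called (19.0% higher and 18.1% lower). Irf7 was 4.96-fold (edgeR adjusted p = 6.88e-07), Irf1 1.77-fold (2.26e-06) and Irf9 1.60-fold higher (7.58e-08), and Irf8 stood at 79.4% (0.00111). Irf3, at 88.1% (edgeR adjusted p = 0.0468), lost its call without combined replicates 2 or 3 or M2 mock replicates 1 or 3 (from 0.0744 to 0.262), without the filter (0.169) and with only the groups compared (0.142).

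Against the M1 state the combined knockdown differed in both directions. In the combined knockdown against mock M1, 3 of the 8 genes were higher and 2 lower where 52.9% of all genes were called (27.2% higher and 25.6% lower). Irf1 stood at 12.2% of mock M1 (log2 -3.04, SE 0.13, edgeR adjusted p = 4.64e-19) and Irf8 at 34.7% (edgeR adjusted p = 1.27e-16). Irf7 was 2.85-fold (edgeR adjusted p = 0.000133), Irf4 2.72-fold (edgeR adjusted p = 2.64e-06) and Irf9 1.958-fold higher (edgeR adjusted p = 2.48e-11). The target lists split in the same manner, with all 15 targets of ISGF3, Irf3 and Irf7 higher and 10 of 11 targets of interferon gamma and Irf1 lower than in mock M1. The negative pool also stood above mock M1 in mean Irf7 (855 against 375 CPM), Irf4 (10.6 against 2.75 CPM) and Irf9 (118 against 70.3 CPM). It stood below mock M1 in Irf1 (68.3 against 744 CPM) and Irf8 (330 against 741 CPM). Those differences were not tested, and this comparison cannot tell the knockdown from the pool and the M2 state. The log2 differences of Irf2, Irf3 and Irf5 were -0.12, 0.00 and 0.07, with 95% intervals from -0.27 to 0.03, from -0.14 to 0.14 and from -0.08 to 0.23.

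In the Myc knockdown 1 of the 8 genes rose and 2 fell where 29.6% of all genes were called (13.9% higher and 15.6% lower), so that the count is near its background. Irf8 stood at 249, 272 and 236 CPM, all below the pool, at 76.6% of it (log2 -0.39, SE 0.08, edgeR adjusted p = 0.000354). Irf4 stood at 7.45, 7.98 and 5.28 CPM, at 65.8% of the pool (log2 -0.60, SE 0.20, edgeR adjusted p = 0.0204), and Irf9 at 137, 133 and 143 CPM, 1.17-fold above it (edgeR adjusted p = 0.0352). The call of Irf4 was lost without Myc replicate 3 or pool replicates 1 or 2 (edgeR adjusted p from 0.058 to 0.129), and against mock M2, which the pool itself exceeded, its log2 difference was -0.00. The call of Irf9 was lost without Myc replicates 1 or 3 or pool replicates 2 or 3 (edgeR adjusted p from 0.0668 to 0.125). That of Irf8 was kept without each single library.

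Irf7 in the Myc knockdown stood at 1021, 1027 and 1179 CPM, above all pool libraries (log2 0.33, 95% interval from -0.27 to 0.93, edgeR adjusted p = 0.44), and was called without the filter (0.0213) and with only the groups compared (0.00163). Irf1 stood at 75.4, 81.2 and 90.0 CPM, also above the pool (log2 0.27, 95% interval from 0.03 to 0.50, edgeR adjusted p = 0.0959), and was called under the same settings (0.022 and 0.0125). Where 29.6% of all genes were called (13.9% higher and 15.6% lower), 3 of the 15 targets of ISGF3, Irf3 and Irf7 rose. All 3 Irf2 binding proteins rose, and 4 of 7 interleukin-4 genes fell, while Ifnb1 went to 12 to 30 reads (log2 3.22, edgeR adjusted p = 0.00134).

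In the knockdowns of E2f1, Pparg and Stat6 edgeR called none of the 8 genes, where 0.91% (0.261% higher and 0.649% lower), 5.74% (2.71% and 3.03%) and 1.51% (0.466% and 1.04%) of all genes were called, so that a count of 0 is near these backgrounds too. The number at an unadjusted p under 0.05 was 0, 2 and 0, and DESeq2 called none in any of them. Irf4 in the Pparg knockdown stood at 13.98, 19.3 and 11.6 CPM, its highest mean of the 12 conditions, with an overlap with the pool at its lowest library (log2 0.51, 95% interval from 0.14 to 0.88, edgeR adjusted p = 0.112), and was called without the filter (0.0257). Irf7 there stood at 1049, 978 and 1265 CPM (log2 0.36, 95% interval from -0.24 to 0.96, edgeR adjusted p = 0.573), and was called without the filter (0.0377) and with only the groups compared (0.0194). In the E2f1 knockdown the 8 log2 differences lay between -0.15 and -0.01, and Irf8, at -0.15 (95% interval from -0.30 to 0.01), was the 1 gene whose groups did not overlap, where 21.3% of all genes did not. In the Stat6 knockdown the groups of all 8 genes overlapped the pool, where 21.0% of all genes did not, and Irf7, at 858, 1006 and 1223 CPM, had the largest difference (log2 0.27, 95% interval from -0.33 to 0.86).

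**Figure D4:**
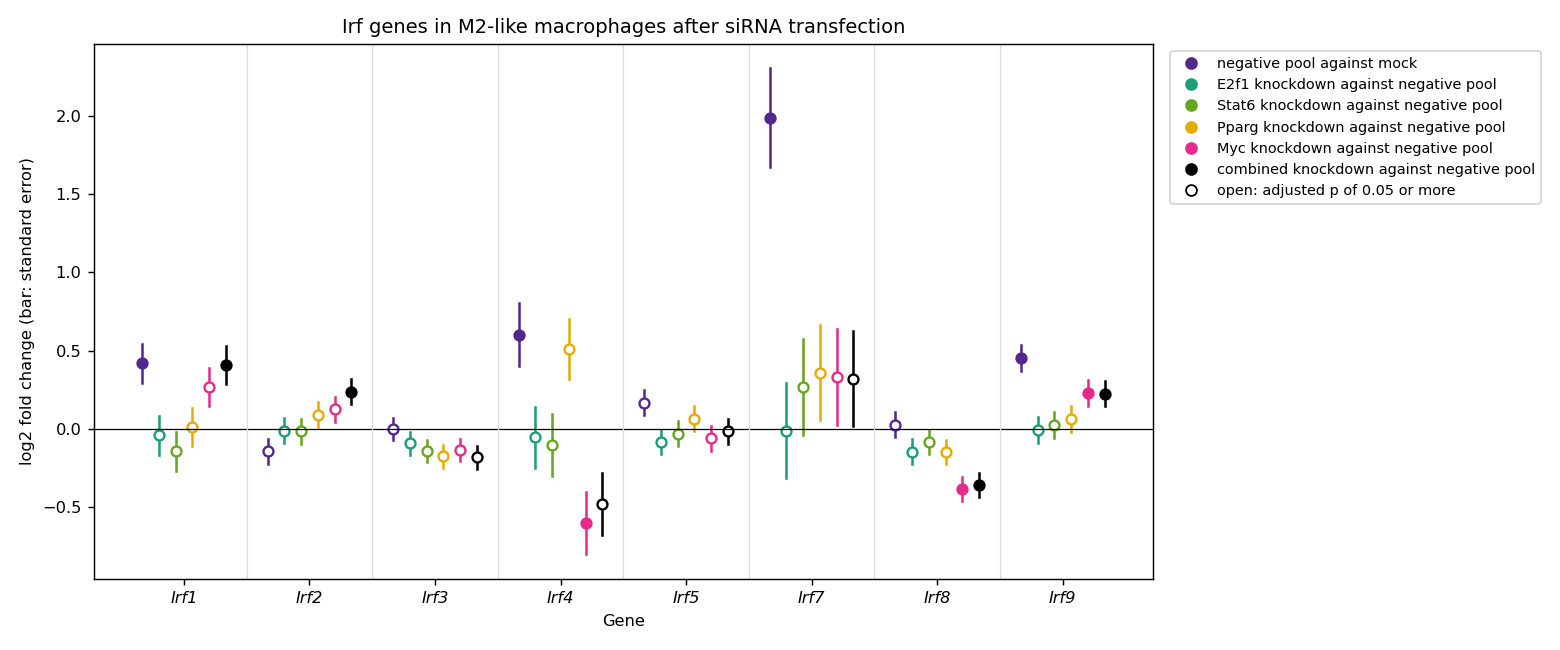
Log2 fold change of each gene with its standard error, 3 libraries per group. The first series sets the negative pool against mock M2. The others set the E2f1, Stat6, Pparg, Myc and combined knockdowns against the same 3 pool libraries. Irf8 lies at -0.36 in the combined and -0.39 in the Myc knockdown, and Irf4 at 0.51 in the Pparg and -0.60 in the Myc knockdown.

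Set against each single knockdown, the combined knockdown was nearest to that of Myc. Between these 2 edgeR called none of the 8 genes and 0.0494% of all genes (0.0% higher), none of the 8 had an unadjusted p under 0.05, and DESeq2 called none. The log2 differences there lay between -0.05 and 0.14, with the widest 95% interval from -0.61 to 0.59 for Irf7, so like levels are not shown. Against the Pparg knockdown 1 gene was higher and 1 lower where 18.0% of all genes were called (7.68% higher and 10.3% lower). Irf4 stood at 50.2% of the Pparg knockdown (log2 -0.99, SE 0.20, edgeR adjusted p = 0.000466), without overlap and kept without each single library. Irf1 was 1.31-fold higher than in the Pparg knockdown (edgeR adjusted p = 0.0214), which was lost without combined replicate 3 or Pparg replicates 1 or 3 (edgeR adjusted p from 0.0695 to 0.118). Irf8, at -0.21 (edgeR adjusted p = 0.0582), was called without Pparg replicate 2 (0.0277) and by DESeq2 (0.0435).

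Against the Stat6 knockdown 2 were higher and 1 lower where 22.2% of all genes were called (10.4% higher and 11.8% lower). Irf1 was 1.47-fold higher (edgeR adjusted p = 0.0012) and kept its call without each library. Irf2, 1.19-fold higher (edgeR adjusted p = 0.0196), lost its call without combined replicate 2 or Stat6 replicates 1 or 2 (edgeR adjusted p from 0.0681 to 0.129). Irf8, at 82.7% (edgeR adjusted p = 0.0108), lost it without combined replicate 3 or Stat6 replicate 1 (0.0663 and 0.0883). Against the E2f1 knockdown 3 were higher and 1 lower where 21.6% of all genes were called (10.3% higher and 11.3% lower), with Irf1 1.37-fold higher (edgeR adjusted p = 0.00686). Irf1 lost its call there without combined replicate 3 (edgeR adjusted p = 0.0518), and the other 3 calls rested on more libraries. Irf2 (1.19-fold) lost its call without combined replicate 2 or E2f1 replicates 2 or 3, Irf9 (1.18-fold) without combined replicates 1 or 2 or any E2f1 replicate, and Irf8 (86.2%) without any library of either group (edgeR adjusted p from 0.0526 to 0.193). Without the filter, Irf2, Irf8 and Irf9 were not called (edgeR adjusted p from 0.0548 to 0.0836), and Irf7, at 0.33, was (0.0336), as it was with only the groups compared (0.00882).

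Over the 12 conditions of the reprogramming experiment, the genes fell into those with a wide and those with a narrow range of mean levels. Irf7 ranged over 125-fold, from 8.76 CPM in untransfected M2 to 1097 CPM in the Pparg knockdown, and Irf1 over 24.2-fold, from 33.6 CPM in untransfected M2 to 815 CPM in untransfected M1. Irf4 ranged over 7.65-fold, from 1.955 CPM in untransfected M1 to 14.96 CPM in the Pparg knockdown. Irf9 ranged over 3.84-fold, from 35.9 CPM in untransfected M2 to 138 CPM, and Irf8 over 3.25-fold, from 252 CPM in the Myc knockdown to 819 CPM in untransfected M1. Irf2, Irf3 and Irf5 ranged over 1.33-fold, 1.32-fold and 1.21-fold. When the 12 conditions were put in order of their mean, the libraries of neighbours overlapped in 8 of 11 pairs for Irf7 and Irf4, in 9 for Irf1 and Irf8, in 7 for Irf9, in 10 for Irf3, and in all 11 for Irf2 and Irf5.

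The genes whose means followed each factor most closely over these 12 conditions were found by Pearson's correlation of mean log2 CPM among 10223 genes. The points share libraries, depth and treatment groups, so the values are descriptions. Irf7 was followed by Slfn1 (0.996), Ifi213 (0.995) and Xaf1 (0.993), and Irf9 by Oas1a (0.996), Oas2 (0.994) and Oas1g (0.992), all of them genes known to respond to interferon. Irf1 was followed by Tmbim4 (0.995), Wars (0.992) and Pla2g16 (0.990), Irf8 by Cnn3 (0.988), Ctsh (0.987) and Yipf1 (0.986), and Irf4 by Mmp13 (0.977), Uaca (0.976) and Adk (0.976). For Irf2, Irf3 and Irf5, whose ranges were narrow, the closest were Srp54c (0.943), Engase (0.958) and Sh3pxd2b (0.928). Within the family Irf7 and Irf9 had a correlation of 0.938 and Irf1 and Irf8 of 0.920, while Irf4 and Irf8 ran against each other at -0.811. Both M1 conditions held the highest Irf1 and Irf8 and the lowest Irf4. Against the pool the relations differed, since Irf1 rose and Irf8 fell in the combined knockdown, and Irf4 and Irf8 both fell in the Myc knockdown.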

How the data were processed

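RNA sequencing counts of 54 libraries were used as deposited. The authors trimmed reads with Trimmomatic, aligned them to GRCm38 (mm10) with TopHat2 and counted them with featureCounts, giving raw counts per Ensembl gene and library. Versions, annotation release, strand and multi-mapping settings are not given in the sources used here. Technical replicates of the polarization experiment were summed, and each experiment was fitted once over all its groups with edgeR 4.0.16 in R 4.3.3. TMM factors, filterByExpr (minimum count 10, minimum total 15), quasi-likelihood tests and Benjamini-Hochberg adjustment over 16110 and 14172 genes were used, with a threshold of 0.05. CPM used TMM library sizes, CPM per kb the union exon length of GENCODE M21, and 95% intervals 1.96 standard errors. Such intervals are narrower than the quasi-likelihood tests would give, so they can leave out 0 where the unadjusted p does not pass. Alternatives were DESeq2 1.42.0, its size factors in edgeR (RLE), no filter, a replicate block, only the groups compared, technical replicates kept apart, mock as reference, and leaving out each library. The test script was tested on simulated data. Samples of the polarization experiment with 1 number came from 1 mouse by their titles (median correlation of deviations 0.25, against -0.135 between mice), and the mouse as a block changed no call of the 8 genes there. Named pathway genes were at most 3 per list, those called with the largest change in M1 against M2 at 24 h, in mock M1 against mock M2 or in the combined knockdown against the pool, plus Stat2, Ifnb1 and the siRNA targets, and 1 gene of that rule is not reported here. For likeness, the 3 genes with the highest correlation were taken among genes with a mean log2 CPM of at least 2. Members, lists and tests were chosen with earlier results of these data known.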

Additional observations from a re-analysis of the deposited data

Results flagged for a closer look

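Irf7 and Irf9 were singled out because their difference between M1 and M0 macrophages itself differed between mock-treated and untransfected cells. The log2 difference between M1 and M0 was smaller under mock treatment by -3.30 for Irf7 (SE 0.45, edgeR quasi-likelihood adjusted p = 6.35e-06) and by -0.79 for Irf9 (SE 0.12, edgeR adjusted p = 3e-05). For Irf7 it went from 3.36 in untransfected to 0.06 in mock-treated cells, and for Irf9 from 0.33 to -0.46. Irf7 lay at 20.4 to 62.7 CPM in untransfected and 149.5 to 598 CPM in mock M0, and its M1 libraries lay at 344 to 387 CPM without and 348 to 399 CPM with the reagent. Reagent and time in culture cannot be told apart here. Mock M0 replicate 1 was lowest in both genes, and untransfected M0 replicate 1 was highest in both.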

How the results depend on the processing

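Of the results for single genes and comparisons, DESeq2 left 202 on their side of the threshold in the same direction, added 4 calls and ended 2, and its size factors in edgeR left 206 and ended 2. Without the filter on low counts 184 held, 14 calls were added and 10 ended, and with only the groups compared 194 held, 8 were added and 6 ended. Technical replicates kept apart added 2 calls, those of Irf3 and Irf9 in M2 against M0 at 24 h. Leaving out 1 library held in 1251 cases, added a call in 14 and ended it in 79, and the cause of these was not tested.

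Without the filter the number of the 8 genes called was 1 in mock M2 against mock M0, 5 in the Myc and 2 in the Pparg knockdown, 2 in the combined against the E2f1 knockdown, 4 in the M1 to M0 difference between mock and untransfected cells and 2 in that of M2 to M0. With only the groups compared it was 5 for Myc and 1 for Pparg. DESeq2 gave 1 in the M2 to M0 difference between mock and untransfected cells. With mock as the reference of the knockdowns it was 3 for E2f1, 5 for Pparg and 2 for Stat6, and in the E2f1 knockdown the sign turned for Irf1 (0.38), Irf7 (1.98) and Irf9 (0.45), since the negative pool lay above mock.

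The numbers of the reprogramming libraries mark no stated animal, although 34 of 36 libraries correlated best with their own number (median 0.183, against -0.083 between numbers). A fit with the replicate number as a block added 14 calls and ended none. Among those added (edgeR adjusted p) were Irf4 in the Pparg knockdown (0.49, 0.00716) and in the combined knockdown against the pool (-0.49, 0.00301), Irf1 in mock against untransfected M0 (0.32, 0.0153), and Irf1 (-0.45, 0.0174) and Irf4 (0.84, 0.0125) in the M1 to M0 difference between mock and untransfected cells. The number called was then 2 in mock M2 against mock M0, 1 in the Pparg knockdown, 4 in the M1 to M0 and 1 in the M2 to M0 difference between mock and untransfected cells. The mouse block of the polarization experiment changed no call of the 8 genes.

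Without 1 library at a time, the number called lay between 0 and 1 in mock M2 against mock M0 (1 without M0 mock replicate 1), between 4 and 7 in mock M1 against mock M2 (4 without M2 mock replicate 1), and between 2 and 3 for the negative pool against mock (2 without M2 mock replicate 1 or pool replicate 2). It lay between 2 and 4 for the combined knockdown against the pool (2 without combined replicate 2 or pool replicates 1 or 2), between 1 and 3 for Myc (1 without Myc replicate 3 or pool replicate 2), between 1 and 2 for the combined against the E2f1, between 1 and 3 against the Pparg (1 without combined replicate 3 or Pparg replicates 1 or 3) and between 1 and 3 against the Stat6 knockdown (1 without Stat6 replicate 1). It lay between 2 and 3 for the M1 to M0 and between 0 and 2 for the M2 to M0 difference between mock and untransfected cells. Depth limits Irf4 in M1, at 26 to 33 reads per untransfected library, and Ifnb1.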
